A study of Saccharomyces cerevisiae with 12 samples.

Results

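The transcripts of 9 yeast genes were followed across 4 genotypes: CYC8 (YBR112C) and TUP1 (YCR084C), which encode the corepressor itself, and 7 genes of its partners. The partner genes are HDA1 (YNL021W), HDA2 (YDR295C), RPD3 (YNL330C), SIN3 (YOL004W), HOS1 (YPR068C), HOS2 (YGL194C) and SSN3 (YPL042C). They were picked by identity from the table of counts, 9 of 7150 gene models, and all 9 were among the 6171 genes that passed the filter on low counts and were tested. The 12 libraries hold RNA, with ribosomal RNA removed, of Saccharomyces cerevisiae grown to log phase in YPD, a rich glucose medium. The cyc8 snf2 libraries (n = 4) come from YDB1.7, a derivative of FY2083 that adds cyc8::URA3, and the cyc8 libraries (n = 3) from YAFTCD4, a BY4741 strain with cyc8::KAN. The snf2 libraries (n = 2) come from FY2083, which carries snf2::LEU2, his3del200, ura3del0, trp1-del63, lys2del0 and met15del0, and the wt libraries (n = 3) from BY4741, which carries his3del1, leu2del0, met15del0 and ura3del0. All strains are labelled as mating type a and as met15 and ura3 mutants. The labels do not say whether replicates were separate cultures, so p-values measure the spread between libraries, which may be technical.

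The proteins Cyc8, also named Ssn6, and Tup1 make up a general corepressor without a DNA-binding domain of its own. DNA-binding proteins such as Mig1, Rox1, Sko1 and the a1/alpha2 and alpha2-Mcm1 complexes bring it to promoters, where it represses genes of glucose repression, hypoxia, osmotic stress and mating type. Tup1 binds the tails of histones H3 and H4 that carry little acetylation, and the corepressor works with histone deacetylases. Of these, Hda1 acts with its partner Hda2, Rpd3 with the scaffold Sin3, Hos2 within the Set3 complex, and Hos1 as a further class I enzyme. Ssn3 (also Srb10 or Cdk8) is the cyclin-dependent kinase of the Mediator complex, found through mutations that relieve glucose repression. The product of SNF2 drives the Swi-Snf remodeler with energy from ATP, and this remodeler works against the corepressor at many of the same promoters.

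The bases just before 4 of the gene models are shown because the models' transcripts carry the results: TUP1, 2 deacetylase genes that were lower in both strain backgrounds (HOS1 and HOS2), and RPD3, the single window of those searched with a motif match. Each sequence is of build R64 on the strand of the gene, ends at the base before the model's start, and stops at the next gene model or at 250 bases. Capitals mark the match described after them.
TUP1, chrIII:262680-262929, minus strand: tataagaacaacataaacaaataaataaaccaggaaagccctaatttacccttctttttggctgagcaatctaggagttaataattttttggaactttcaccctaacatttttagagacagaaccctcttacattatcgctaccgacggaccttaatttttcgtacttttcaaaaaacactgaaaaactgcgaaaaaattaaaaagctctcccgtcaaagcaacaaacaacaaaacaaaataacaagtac
HOS1, chrXVI:684404-684491, minus strand: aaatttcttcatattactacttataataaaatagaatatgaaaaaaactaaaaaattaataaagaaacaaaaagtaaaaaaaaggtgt
HOS2, chrVII:141793-141870, minus strand: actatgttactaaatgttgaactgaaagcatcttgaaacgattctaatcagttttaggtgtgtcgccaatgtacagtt
RPD3, chrXIV:19368-19484, minus strand: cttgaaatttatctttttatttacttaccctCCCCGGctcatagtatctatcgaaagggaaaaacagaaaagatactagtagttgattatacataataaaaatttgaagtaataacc
The HOS1 window of 88 bases has 14.8% G and C. Short core motifs of repressors tied to these complexes were searched on both strands of these windows and of those before HDA1 and SIN3. The letters were GGCGGC for the repressor Ume6, ATTGTT for the hypoxic repressor Rox1 and ACGTCA for the osmotic repressor Sko1. For Mig1 the first form searched was GCGGGG, a second form was GTGGGG, another form was CCGGGG and the last form was CTGGGG. The RPD3 window held CCCCGG, a Mig1 letter match 81 bases before the model's start, and 4.87% of 5713 upstream regions of the same length hold a Mig1 match. Unlike the windows shown, these regions were not cut at the next gene model. The other 3 windows shown, and those of HDA1 and SIN3, held none of these letters, while 1.19% to 11.2% of regions of the HOS1 length and 4.87% to 28.7% of regions of the TUP1 length hold a given one of the 4 motifs. With 4 motifs searched in each window, whether 1 match is more than in other regions was not tested.

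The models follow build R64. CYC8 lies on chromosome II, bases 462616 to 465972, on the minus strand. Its model of 3357 bases holds 456 (13.6%) outside the coding sequence. TUP1 lies on chromosome III, bases 260157 to 262679, minus strand, HOS1 on chromosome XVI, bases 682757 to 684403, minus strand, and HOS2 on chromosome VII, bases 140157 to 141792, minus strand. SIN3 lies on chromosome XV, bases 316938 to 321548, plus strand, and its model is the coding sequence alone. RPD3 (bases 17668 to 19367, minus strand) and HDA1 (bases 593157 to 595581, plus strand) lie on chromosome XIV, HDA2 on chromosome IV (bases 1052542 to 1054910, minus strand) and SSN3 on chromosome XVI (bases 472894 to 475001, minus strand). Several models overlap another gene: 12.9% of HOS1 is shared with ISA2 on the opposite strand, 12.1% of CYC8 with YBR113W on the opposite strand (1 to 13 counts a library), and 9.9% of HDA1 with ARK1 on the opposite strand. On the same strand, 5.44% of HOS2 is shared with YGL194C-A, 5% of RPD3 with AAD14 and 4.13% of SSN3 with MRX11.

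Library totals were 16378131 to 27230568 counts, and each member had 61 to 6004 counts in each library. Of the marker genes, URA3 had 18.3 ± 1.24 CPM (counts scaled to a common library size by TMM; SD, n = 4) in cyc8 snf2 libraries and 0 counts in every cyc8 and snf2 library, and LEU2 averaged 269 CPM in cyc8 snf2 and 483 CPM in snf2 libraries, against at most 3 counts in cyc8 and wt. LYS2 and HIS3 had at most 7 and 2 counts in the cyc8 snf2 and snf2 libraries, while HIS3 averaged 79.3 CPM in cyc8 and 44.2 CPM in wt, labelled his3del1. TRP1, trp1-del63 by the FY2083 label, had 54.8 ± 1.06 CPM in cyc8 snf2 and 47.5 ± 0.720 CPM in snf2 libraries, against 53.7 ± 4.16 CPM in cyc8 and 37.2 ± 2.03 CPM in wt. The labels do not say which bases trp1-del63 or his3del1 removed, so counts over the whole TRP1 and HIS3 models do not check these alleles. The SNF2 transcript averaged 109 ± 4.42 CPM in cyc8 snf2 libraries and 66.0 ± 0.933 CPM in snf2 libraries, against 79.6 ± 8.48 CPM in cyc8 and 80.1 ± 8.21 CPM in wt, so reads of SNF2 were present in the libraries labelled snf2. The summed level of 5 genes of a cells was 702 to 790 CPM in cyc8 snf2, 924 to 1233 CPM in cyc8, 699 CPM in snf2 and 2091 to 2281 CPM in wt libraries, and 3 genes of alpha cells together stayed between 0.726 and 9.63 CPM.

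The transcript of CYC8 itself remained in the libraries labelled cyc8. It had 63.3, 60.5 and 54.1 CPM in the cyc8 libraries, against 78.8, 82.5 and 69.9 CPM in the wt libraries. All cyc8 values lay below all wt values. The log2 fold change was -0.38 ± 0.09 (SE; edgeR quasi-likelihood test, adjusted p = 0.00304). In the other background it had 52.2, 55.0, 50.0 and 55.5 CPM in the cyc8 snf2 libraries, against 64.9 and 58.2 CPM in the snf2 libraries, again without overlap, at -0.21 ± 0.09 (edgeR adjusted p = 0.0748, interval -0.41 to -0.01). The labels do not say which bases of CYC8 the KAN or URA3 marker replaced, so a count over the whole model does not check the allele, and the mutated libraries are called by their labels throughout.

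**Figure D1:**
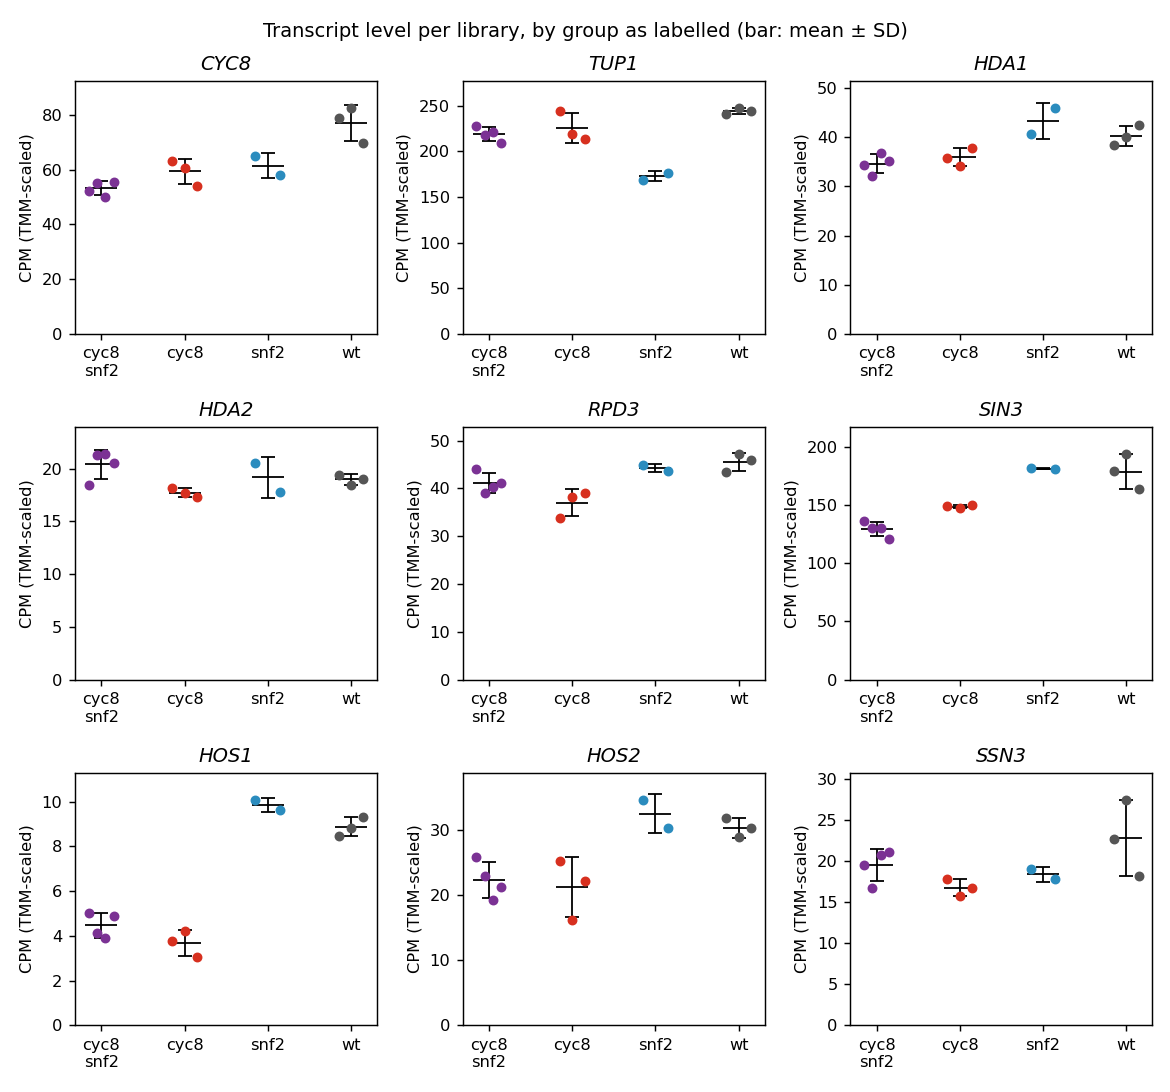
Level of each of the 9 transcripts in CPM in every library, grouped from left to right as cyc8 snf2 (n = 4), cyc8 (n = 3), snf2 (n = 2) and wt (n = 3), with the mean and SD as bars; each panel has its own axis from 0. HOS1 sits at 3.90 to 5.03 CPM in cyc8 snf2 and at 3.04 to 4.21 CPM in cyc8 libraries, below every snf2 and wt library.

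Per kilobase of model, TUP1 was the most abundant of the 9 in every group and HOS1 the least. In wt libraries the order by mean CPM per kilobase was TUP1 (96.7), SIN3 (38.8), RPD3 (26.8), CYC8 (23.0), HOS2 (18.5), HDA1 (16.6), SSN3 (10.8), HDA2 (8.01) and HOS1 (5.39), and every gene lay above the next in all 3 libraries. In cyc8 libraries the first 4 places were the same, at 89.5, 32.3, 21.8 and 17.7 CPM per kilobase, while HDA1 (14.8) and HOS2 (13.0) overlapped, as did SSN3 (7.96) and HDA2 (7.48). HOS1 had 2.23 CPM per kilobase in cyc8, apart from all others. In snf2 libraries TUP1 had 68.5 CPM per kilobase, and in cyc8 snf2 libraries 86.8, still above the next gene in every library.

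In cyc8 against wt libraries, both BY4741, 6 of the 9 transcripts fell: HOS1, HOS2, SSN3, CYC8, RPD3 and SIN3. Of all genes tested, 23.9% were lower at the same threshold, an edgeR adjusted p below 0.05, and 22.9% were higher. A fall of at least 2-fold was seen for HOS1 alone among the 9, and for 3.48% of all genes. The median log2 fold change of the 9 was -0.30, against -0.05 over all genes, and all 9 lay below 0, as did 54.5% of all genes. The median size of change, whatever its sign, was 0.299 for the 9 and 0.309 for all genes.

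HOS1, the class I deacetylase gene, had 3.78, 4.21 and 3.04 CPM in cyc8 libraries, against 8.46, 8.84 and 9.31 CPM in wt libraries. Its highest cyc8 value was below its lowest wt value. The log2 fold change was -1.27 ± 0.15 (edgeR adjusted p = 1.18e-05), a 2.41-fold lower level.

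HOS2, the deacetylase of the Set3 complex, had 25.2, 16.2 and 22.2 CPM in cyc8, against 31.8, 28.9 and 30.3 CPM in wt. The groups did not overlap, but the cyc8 libraries spread more widely. The log2 fold change was -0.52 ± 0.15 (edgeR adjusted p = 0.01).

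RPD3, the catalytic subunit, had 33.8, 38.3 and 39.0 CPM in cyc8, against 43.4, 47.2 and 46.0 CPM in wt. SIN3, the scaffold that holds Rpd3, had 149.1, 147.3 and 150.0 CPM in cyc8, against 179.2, 194.1 and 163.6 CPM in wt. Neither gene overlapped between the groups. Their log2 fold changes were -0.30 ± 0.08 (edgeR adjusted p = 0.0075) for RPD3 and -0.27 ± 0.07 (edgeR adjusted p = 0.00826) for SIN3. With only the cyc8 and wt libraries in the fit, SIN3 missed the threshold (edgeR adjusted p = 0.0511).

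SSN3, the Mediator kinase, had 17.9, 15.7 and 16.8 CPM in cyc8, against 22.7, 27.5 and 18.2 CPM in wt. The groups did not overlap, though the lowest wt library came close to the highest cyc8 library. The log2 fold change was -0.44 ± 0.14 (edgeR adjusted p = 0.0179). The call was lost without wt replicate 2 (-0.29, edgeR adjusted p = 0.0928), without cyc8 replicate 2 (edgeR adjusted p = 0.0677) or 3 (edgeR adjusted p = 0.0655), and with these 2 groups alone in the fit (edgeR adjusted p = 0.0648).

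TUP1, HDA1 and HDA2 did not pass. TUP1 had 244.7, 219.0 and 213.4 CPM in cyc8, against 240.7, 247.3 and 244.0 CPM in wt, with overlap, a log2 fold change of -0.11 ± 0.07 and an interval of -0.26 to 0.03 (edgeR adjusted p = 0.185). HDA1 had 35.8, 34.2 and 37.8 CPM in cyc8, against 38.3, 40.0 and 42.5 CPM in wt. These groups did not overlap, at -0.16 ± 0.08 (edgeR adjusted p = 0.119, interval -0.34 to 0.01). HDA2, the partner of Hda1, was at 17.3 to 18.1 CPM in cyc8 and 18.4 to 19.4 CPM in wt, at -0.10 ± 0.09 (edgeR adjusted p = 0.406, interval -0.30 to 0.10). Upper-quartile scaling, which moves the median of all genes by -0.123, brought TUP1 (-0.24, edgeR adjusted p = 0.011) and HDA1 (-0.29, edgeR adjusted p = 0.0112) past the threshold.

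In cyc8 snf2 against snf2 libraries, both FY2083 or its derivative, 4 of the 9 fell (HOS1, HOS2, SIN3 and HDA1) and TUP1 rose. Over all genes 23.8% were lower and 24.3% higher. HOS1 was again the single member lower by at least 2-fold, as were 3.08% of all genes. The median log2 fold change was -0.21 for the 9 and -0.03 over all genes.

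HOS1 had 5.03, 4.12, 3.90 and 4.87 CPM in cyc8 snf2, against 10.1 and 9.64 CPM in snf2. The groups were far apart. The log2 fold change was -1.14 ± 0.15 (edgeR adjusted p = 4.18e-05), a 2.20-fold lower level. SIN3 had 136.2, 130.5, 130.8 and 120.8 CPM in cyc8 snf2, against 181.6 and 181.2 CPM in snf2, with no overlap and a log2 fold change of -0.49 ± 0.08 (edgeR adjusted p = 0.00016).

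HOS2 had 25.8, 22.9, 19.3 and 21.3 CPM in cyc8 snf2, against 34.6 and 30.3 CPM in snf2, at -0.54 ± 0.15 (edgeR adjusted p = 0.00928). HDA1 had 34.4, 32.1, 36.9 and 35.2 CPM in cyc8 snf2, against 40.7 and 45.9 CPM in snf2, at -0.32 ± 0.09 (edgeR adjusted p = 0.0074). Both lay lower in every cyc8 snf2 library. Without snf2 replicate 1 HOS2 was at -0.43 (edgeR adjusted p = 0.12), and without snf2 replicate 2 HDA1 was at -0.22 (edgeR adjusted p = 0.165), fits in which the lone snf2 library is assumed to vary like the other groups.

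TUP1 had 228.2, 218.2, 221.0 and 208.9 CPM in cyc8 snf2, against 169.1 and 176.4 CPM in snf2. The lowest double-labelled library lay above the higher snf2 library. The log2 fold change was 0.34 ± 0.07 (edgeR adjusted p = 0.00158), a 1.27-fold higher level.

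RPD3 had 39.0 to 44.1 CPM in cyc8 snf2 and 43.7 to 44.9 CPM in snf2, which overlapped (-0.11 ± 0.08, edgeR adjusted p = 0.309). HDA2 had 18.4 to 21.4 CPM in cyc8 snf2 and 17.8 to 20.6 CPM in snf2 (0.09 ± 0.10, edgeR adjusted p = 0.481). SSN3 had 16.7 to 21.2 CPM in cyc8 snf2 and 17.8 to 19.0 CPM in snf2 (0.08 ± 0.15, edgeR adjusted p = 0.664). None of the 3 separated the groups. Upper-quartile scaling, which moves the median of all genes by -0.126 here, called CYC8 (-0.34, edgeR adjusted p = 0.00613) and RPD3 (-0.23, edgeR adjusted p = 0.0352).

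**Figure D2:**
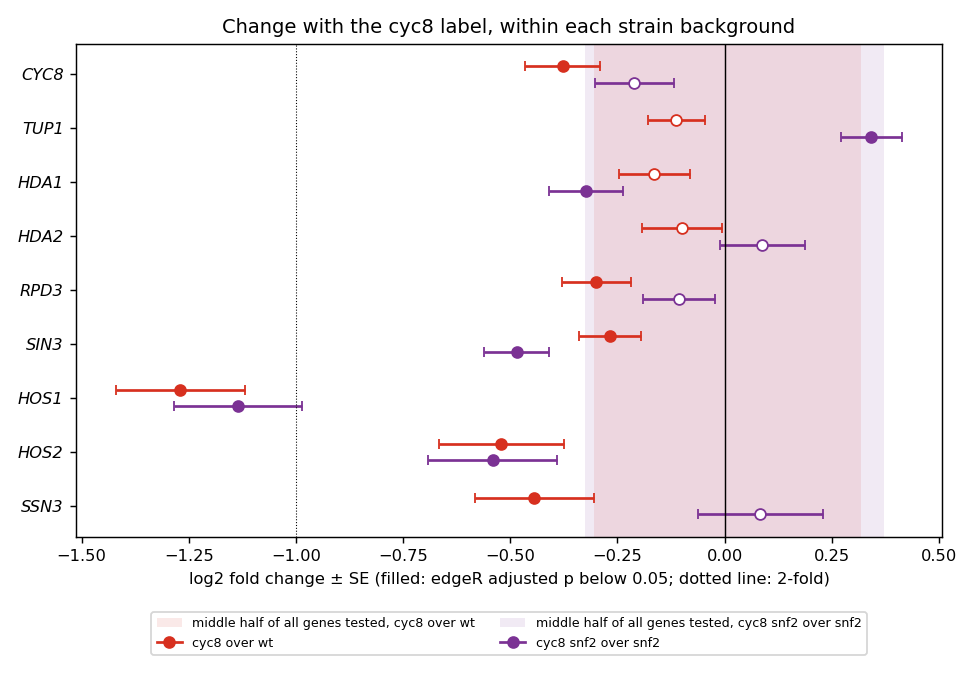
Log2 fold change ± SE of each gene for cyc8 snf2 over snf2 (purple) and cyc8 over wt (red), with filled points at an edgeR adjusted p below 0.05, shading for the middle 50% of all genes tested and a dotted line at 2-fold. HOS1 lies past the 2-fold line in both, and TUP1 is at 0.34 in cyc8 snf2 over snf2 and at -0.11 in cyc8 over wt.

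HOS1, HOS2 and SIN3 were lower in both within-strain comparisons, 3 of 9 members, as were 707 of 6171 genes (11.5%). HOS1 kept its call under each of the 21 alternatives in both comparisons, between -1.39 and -1.10 in cyc8 against wt and between -1.26 and -1.08 in cyc8 snf2 against snf2. The difference between the 2 comparisons, the cyc8 snf2 minus snf2 change less the cyc8 minus wt change, was tested as an interaction. TUP1 was the 1 of 9 members called and was higher by it, as were 13.7% of all genes. Its interaction was 0.46 ± 0.10 on the log2 scale (edgeR adjusted p = 0.004), and 0.39 to 0.52 over 20 alternatives with a call in each. SSN3 was at 0.53 ± 0.20 (edgeR adjusted p = 0.0713), and passed without wt replicate 3 (0.67, edgeR adjusted p = 0.00975) and, at the threshold, without cyc8 snf2 replicate 2 (0.60).

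Comparisons across the strain pairs join the mutations to the strain, which cannot be told apart. In snf2 against wt libraries, CYC8 and TUP1, the corepressor pair, were the 2 members that fell, while 18.7% of all genes were lower. TUP1 had 169.1 and 176.4 CPM in snf2, against 240.7, 247.3 and 244.0 CPM in wt. These values stood well apart, at a log2 fold change of -0.50 ± 0.08 (edgeR adjusted p = 0.000207), a 1.41-fold lower level. CYC8, at 64.9 and 58.2 CPM in snf2 against 69.9 to 82.5 CPM in wt, changed by -0.32 ± 0.10 (edgeR adjusted p = 0.0196). Its call was lost without wt replicate 1 (edgeR adjusted p = 0.0538), wt replicate 2 (edgeR adjusted p = 0.0654) or snf2 replicate 2 (edgeR adjusted p = 0.189). The other 7 members were at -0.31 (SSN3) to 0.15 (HOS1), and SSN3 was called without wt replicate 3 (-0.45, edgeR adjusted p = 0.0168).

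In cyc8 snf2 against cyc8 libraries, 0 of 9 members were called by edgeR, against 19% of all genes in either direction. At an unadjusted edgeR p below 0.05 the count was 2 (SIN3 and HDA2), for which no share over all genes was taken. DESeq2 called 1 member (SIN3) and 1359 of 6171 genes, and limma-voom 0 members and 1164 of 6171 genes. SIN3 had 136.2, 130.5, 130.8 and 120.8 CPM in cyc8 snf2, against 149.1, 147.3 and 150.0 CPM in cyc8, without overlap (-0.20 ± 0.07, edgeR adjusted p = 0.055). SIN3 was called when wt replicate 2 or 3, snf2 replicate 1 or 2, or cyc8 snf2 replicate 1 was left out (edgeR adjusted p = 0.033 to 0.0491). HOS1 had 3.90 to 5.03 CPM in cyc8 snf2 and 3.04 to 4.21 CPM in cyc8, which overlapped (0.29, edgeR adjusted p = 0.203). TUP1 was at 208.9 to 228.2 CPM in cyc8 snf2 and 213.4 to 244.7 CPM in cyc8 (-0.04, edgeR adjusted p = 0.673).

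In cyc8 snf2 against wt libraries, 5 of 9 members fell, CYC8, HOS1, SIN3, HOS2 and HDA1, and 25.6% of all genes were lower. CYC8 was at 50.0 to 55.5 CPM in cyc8 snf2 and 69.9 to 82.5 CPM in wt, a log2 fold change of -0.53 ± 0.08 (edgeR adjusted p = 0.000108). HOS1 changed by -0.98 ± 0.14 (edgeR adjusted p = 5.22e-05), SIN3 by -0.47 ± 0.07 (edgeR adjusted p = 6.76e-05) and HOS2 by -0.44 ± 0.14 (edgeR adjusted p = 0.0149). HDA1 changed by -0.22 ± 0.08 (edgeR adjusted p = 0.0309), and this call was lost in 10 of 21 alternatives, among them those without wt replicate 2 or 3, cyc8 replicate 3, snf2 replicate 1 or 2, or cyc8 snf2 replicate 1, 2 or 4, with an adjusted p of up to 0.101 without wt replicate 3. HOS2 lost its call without wt replicate 1 (edgeR adjusted p = 0.0527), and TUP1 was at -0.16 (edgeR adjusted p = 0.052), called without cyc8 replicate 1 (edgeR adjusted p = 0.0324) or cyc8 snf2 replicate 1 (edgeR adjusted p = 0.039). SSN3 was called without wt replicate 3 (-0.36, edgeR adjusted p = 0.0174). These 3 comparisons and the within-strain ones share libraries, so they do not count as separate evidence.

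The divergent gene beside CYC8 changed far more than CYC8. RAD16, which encodes an ATPase of nucleotide excision repair, is the next protein-coding gene tested upstream of CYC8, on the opposite strand, and had a log2 fold change of 1.91 ± 0.10 in cyc8 against wt (edgeR adjusted p = 3.29e-09) and 1.64 ± 0.11 in cyc8 snf2 against snf2 (edgeR adjusted p = 8.09e-08). SUS1, which overlaps the other end of the CYC8 model on the opposite strand, was at -0.11 (edgeR adjusted p = 0.4) and 0.05 (edgeR adjusted p = 0.739) in the same comparisons.

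Beside HOS1, ISA2, an iron-sulfur assembly gene on the opposite strand, was lower in cyc8 against wt (-0.64, edgeR adjusted p = 0.00243) and at -0.30 in cyc8 snf2 against snf2 (edgeR adjusted p = 0.115). SPE3, the spermidine synthase gene on the other side, was at -0.22 (edgeR adjusted p = 0.00857) and 0.26 (edgeR adjusted p = 0.0044). HOS2 overlaps YGL194C-A over 89 bases, and that gene fell by 1.38 on the log2 scale in cyc8 against wt (edgeR adjusted p = 3.24e-07) and by 1.07 in cyc8 snf2 against snf2 (edgeR adjusted p = 9.04e-06). On the other side of HOS2, YGL193C on the same strand was at -1.35 in cyc8 against wt (edgeR adjusted p = 0.00339). In cyc8 snf2 against snf2 YGL193C was at -0.79 (edgeR adjusted p = 0.0603).

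**Figure D3:**
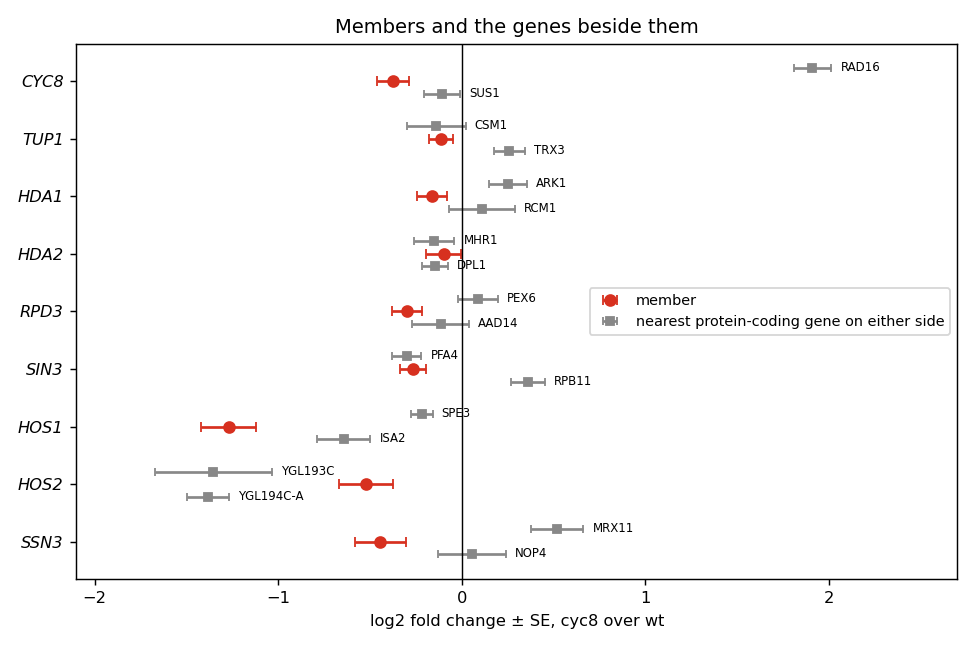
Log2 fold change ± SE in cyc8 over wt of each of the 9 genes (red circles) and of the nearest protein-coding gene on either side (grey squares, named). RAD16, beside CYC8, is the farthest to the right at 1.91, and YGL194C-A, beside HOS2, lies at -1.38.

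The balance between partner transcripts was given as a ratio of counts per base within each library. TUP1 over CYC8 was 5.81, 5.28, 5.89 and 5.01 in cyc8 snf2, against 3.47 and 4.03 in snf2, and 5.14, 4.81 and 5.25 in cyc8, against 4.07, 3.99 and 4.64 in wt. All libraries with the cyc8 label lay above all those without it. The divisor is the count over CYC8, the gene mutated by label in those libraries, with an allele of unknown extent. In cyc8 against wt the log2 fold change was -0.38 for CYC8 and -0.11 for TUP1. In cyc8 snf2 against snf2 it was -0.21 for CYC8 and 0.34 for TUP1. By an exact two-sided permutation test on the log2 ratio, p was 0.133 for cyc8 snf2 against snf2 (log2 difference 0.55) and 0.1 for cyc8 against wt (0.26), the smallest values these designs allow, so neither could pass 0.05.

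SIN3 over RPD3 averaged 1.16 ± 0.066 in cyc8 snf2 (SD, n = 4), against 1.51 ± 0.025 in snf2 (SD, n = 2), without overlap. It averaged 1.49 ± 0.121 in cyc8, against 1.45 ± 0.121 in wt (SD, n = 3 each), which overlapped. HDA1 over HDA2 averaged 1.66 ± 0.145 in cyc8 snf2, against 2.23 ± 0.412 in snf2, and 1.98 ± 0.132 in cyc8, against 2.07 ± 0.133 in wt. The exact permutation p was 0.133 for both pairs in the snf2 background, 0.6 for SIN3 over RPD3 and 0.5 for HDA1 over HDA2 in cyc8 against wt, and 0.2 to 0.6 after adjustment over the 6 ratio tests.

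**Figure D4:**
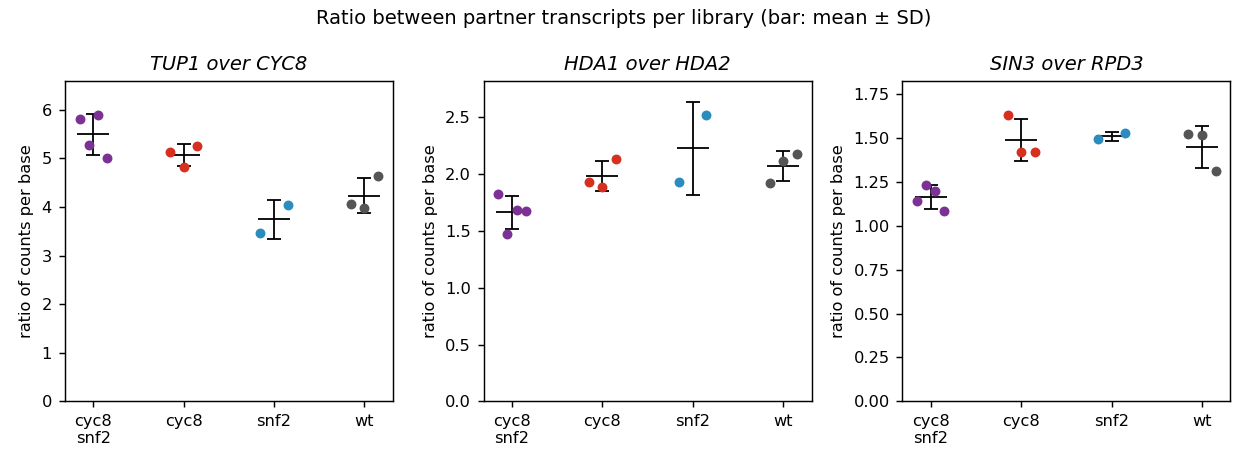
Ratio of counts per base in every library for TUP1 over CYC8, HDA1 over HDA2 and SIN3 over RPD3, grouped from left to right as cyc8 snf2, cyc8, snf2 and wt, with the mean and SD as bars and axes from 0. TUP1 over CYC8 is 4.81 to 5.89 in the libraries with the cyc8 label and 3.47 to 4.64 in those without it.

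A further 33 genes were tested, of which 5 encode other deacetylases and the rest belong to the same complexes or to Mediator. In cyc8 against wt, 4 were higher and 10 lower, beside 22.9% higher and 23.9% lower of all genes. In cyc8 snf2 against snf2, 3 were higher and 11 lower, beside 24.3% higher and 23.8% lower of all genes. Their median log2 fold changes were -0.09 and -0.18, and the counts per complex that follow are of 2 to 10 genes each. In the Set3 complex, the home of Hos2, 3 of 6 genes were lower and 1 higher in cyc8 against wt, and 4 lower and 1 higher in cyc8 snf2 against snf2. SNT1, a subunit of that complex, was lower in both (-0.29 each, edgeR adjusted p = 0.0116 and 0.0142), as were the WD40 subunit SIF2 (-0.35 and -0.31, edgeR adjusted p = 0.0154 and 0.0348) and the NAD-dependent deacetylase HST1 (-0.37 and -0.33, edgeR adjusted p = 0.0121 and 0.024). HOS4, the ankyrin-repeat subunit, was higher in cyc8 against wt (0.30, edgeR adjusted p = 0.0331) and lower in cyc8 snf2 against snf2 (-0.42, edgeR adjusted p = 0.00599), with an interaction of -0.72 ± 0.15 (edgeR adjusted p = 0.0035). The higher gene in cyc8 snf2 against snf2 was CPR1, the cyclophilin of the complex, at 0.65 ± 0.15 (edgeR adjusted p = 0.00337).

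In the Rpd3 large complex, 2 of 10 genes were higher and 2 lower in cyc8 against wt, and 1 higher and 2 lower in cyc8 snf2 against snf2. PHO23, its PHD-finger subunit, was at 0.40 and 0.84 (edgeR adjusted p = 0.036 and 0.000744), and RXT2 at -0.57 and -0.43 (edgeR adjusted p = 0.000208 and 0.00221). The others called were CTI6 (0.50, edgeR adjusted p = 0.00232) and RXT3 (-0.49, edgeR adjusted p = 0.0198) in cyc8 against wt, and ASH1 (-0.24, edgeR adjusted p = 0.0244) in cyc8 snf2 against snf2. ASH1 differed more across the strain pairs, where mutation and strain cannot be told apart. It was at -1.20 in cyc8 snf2 against cyc8 (edgeR adjusted p = 4.54e-08) and -0.80 in snf2 against wt (edgeR adjusted p = 9.91e-06). Among 5 other deacetylase genes, 1 was higher and 2 lower in cyc8 against wt, and 1 higher and 0 lower in cyc8 snf2 against snf2. HST2 averaged 112 CPM in cyc8 snf2 and 54.2 CPM in snf2, and 116 CPM in cyc8 and 70.6 CPM in wt. This was 1.05 ± 0.09 on the log2 scale (edgeR adjusted p = 6.55e-07) and 0.71 ± 0.08 (edgeR adjusted p = 6.75e-06). SIR2, the silencing deacetylase, was lower in cyc8 against wt (-0.86, edgeR adjusted p = 0.000242) and at 0.18 in cyc8 snf2 against snf2 (edgeR adjusted p = 0.342). Its interaction was 1.05 ± 0.21 (edgeR adjusted p = 0.00257). SIR2 averaged 11.5 CPM in cyc8 snf2, 10.5 CPM in cyc8, 10.1 CPM in snf2 and 19.1 CPM in wt libraries. It was lower in snf2 against wt (-0.92, edgeR adjusted p = 0.000603), which differ in strain. HOS3 was lower in cyc8 against wt (-0.33, edgeR adjusted p = 0.0227) and at 0.17 in cyc8 snf2 against snf2 (edgeR adjusted p = 0.24). HST3 passed in neither, and was lower in snf2 against wt (-0.44, edgeR adjusted p = 0.00474).

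Within the kinase module that holds Ssn3, SRB8 (the Med12 subunit) fell by 0.45 on the log2 scale in cyc8 against wt (edgeR adjusted p = 0.000749) and by 0.68 in cyc8 snf2 against snf2 (edgeR adjusted p = 4.06e-05), 1 of 3 and 2 of 3 genes lower there. SSN2 (the Med13 subunit) was the other in cyc8 snf2 against snf2 (-0.38, edgeR adjusted p = 0.0255). Of 7 further Mediator genes, 1 was lower in cyc8 against wt (NUT1, -0.39) and 2 in cyc8 snf2 against snf2 (NUT1, -0.27, and SIN4, -0.32). GAL11 and ROX3 passed in neither. Both were higher in snf2 against wt, which differ in strain (0.49 and 0.29, edgeR adjusted p = 0.00461 and 0.0335). In the Rpd3 small complex, EAF3 was lower in both comparisons (-0.25 and -0.30, edgeR adjusted p = 0.0317 and 0.0149), 1 of 2 genes.

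**Figure D5:**
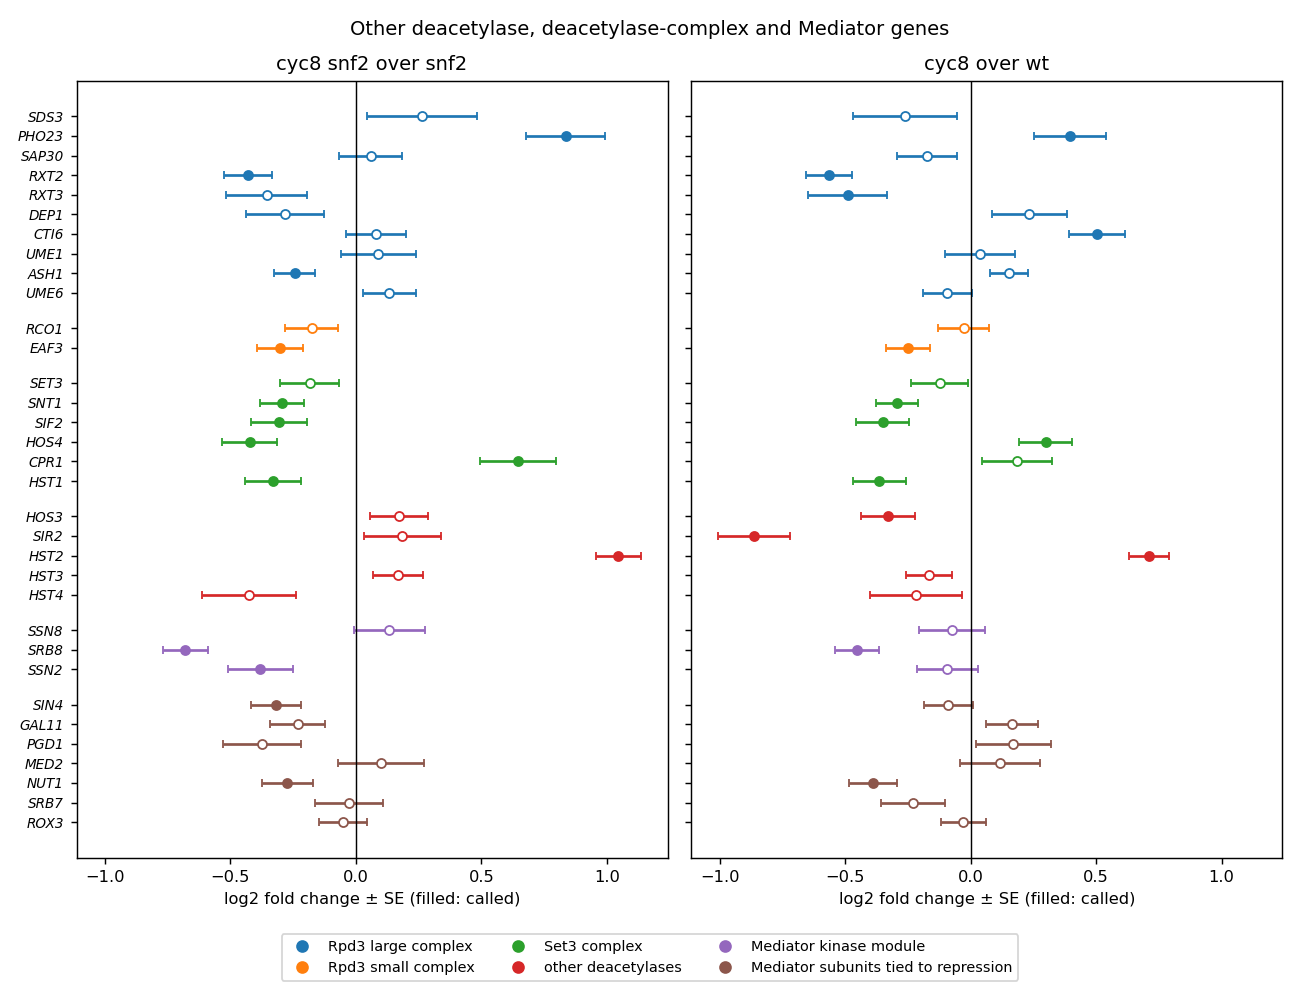
Log2 fold change ± SE of the 33 other deacetylase-complex, deacetylase and Mediator genes, with cyc8 snf2 over snf2 in the left panel and cyc8 over wt in the right panel, coloured by list and filled where the edgeR adjusted p was below 0.05. HST2 lies to the right in both panels at 1.05 and 0.71, and SRB8 to the left at -0.68 and -0.45.

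The genes whose level followed CYC8 most closely across the 12 libraries were the NAD synthetase gene QNS1, ANT1, LAT1, PET54 and TVP23, with a root mean square distance in centred log2 CPM of 0.0923 to 0.0996, against a median of 0.300 over 4766 genes of at least 10 CPM. Those nearest to TUP1 were the coatomer gene RET3 (0.0476), the translation initiation factor gene TIF1 (0.0654), ALG8, COX14 and ENV9 (0.0729), against a median of 0.295. RET3 averaged 149.9 CPM in cyc8 snf2, 153.8 CPM in cyc8, 112.8 CPM in snf2 and 164.0 CPM in wt, so that like TUP1 it was lowest in snf2.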

How the data were processed

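Per the labels' protocols, hot phenol was used to extract RNA for the 12 libraries, ribosomal RNA was removed, and Illumina paired-end reads were taken. The authors deposited raw counts per gene model. The submitters' processing notes name STAR, featureCounts, deepTools and the build R64. Their versions, and whether strand was used, are not given in the sources at hand. Beside 4 emptied lines, which were not used, 7150 models were listed, of which 12 for ribosomal RNA (2 counts in all) were left out. One further gene of the rule, and the bases upstream of CYC8, are not reported here. By the values, counting used the strand: 136 named models nested in another on the opposite strand had a median total of 717.5 counts, and 115 nested on the same strand had 0.

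Groups followed the genotype labels. Tests were run in R 4.3.3 with edgeR 4.0.16 (quasi-likelihood, robust, scaled by TMM, genes kept by filterByExpr) on 12 libraries in 1 fit, with Benjamini-Hochberg adjustment over 6171 genes, and a call at an adjusted p below 0.05. It was tested on simulated data. CPM use TMM-scaled library sizes, and log2 CPM for nearest profiles a prior count of 2. Alternatives used DESeq2 1.42.0, limma 3.58.1, other scalings and filters, a replicate block, and each replicate left out. The members and the lists of complex genes were chosen with earlier results of these data known. Genes named were all members, list genes called in any comparison (the 3 largest changes per list and comparison, so SNT1 enters by cyc8 snf2 against wt), the 5 nearest profiles of CYC8 and of TUP1, and label markers. RAD16, SUS1, ISA2, SPE3, YGL194C-A and YGL193C are neighbours, named after their values were seen. Figures were drawn with matplotlib 3.10.9.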

Additional observations from a re-analysis of the deposited data

Results flagged for a closer look

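The change of TUP1 with the cyc8 label differed between the 2 strain backgrounds by the test of that difference: the interaction was 0.46 on the log2 scale (edgeR adjusted p = 0.004). TUP1 was 0.34 higher in cyc8 snf2 than in snf2 libraries and at -0.11 in cyc8 against wt. The snf2 group holds 2 libraries, and its strain differs from that of the cyc8 and wt groups. Of the 9 members in the cyc8 snf2 group, none had a library set apart by Dixon's criterion.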

How the results depend on the processing

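Across 1125 values of the 9 genes under the alternatives, 1083 kept their side of the threshold, 21 lost a call and 21 gained one. Among values called in either fit, 0 changed sign. Some values called in neither fit did change sign. HDA2 in cyc8 snf2 against snf2, for example, was at 0.09 in the main fit and at -0.04 with upper-quartile scaling. With a fold of at least 2 required, the members called numbered 1 in cyc8 against wt, 1 in cyc8 snf2 against snf2, and 0 in snf2 against wt, in cyc8 snf2 against wt and in the interaction. At an adjusted p below 0.01 they numbered 4 in cyc8 against wt, 5 in cyc8 snf2 against snf2, 1 in snf2 against wt and 3 in cyc8 snf2 against wt. No share over all genes was taken at 0.01, so these counts cannot be set beside one. With only the 2 groups compared in the fit, 4 members and 2397 of 6013 genes were called in cyc8 against wt. In cyc8 snf2 against cyc8, 1 member (SIN3) was called with RLE scaling, with a filter of 10 CPM and with DESeq2. Of all genes, 1138 of 6171, 1049 of 5094 and 1359 of 6171 were called in these 3 fits. Leaving out 1 replicate gave 5 to 6 calls in cyc8 against wt, 4 to 5 in cyc8 snf2 against snf2, 1 to 3 in snf2 against wt, 0 to 1 in cyc8 snf2 against cyc8, 4 to 6 in cyc8 snf2 against wt and 1 to 2 in the interaction. The number of all genes called moved too. In cyc8 against wt it was 2441 of 6166 without cyc8 replicate 2 and 2951 of 6165 without cyc8 snf2 replicate 1. In cyc8 snf2 against cyc8 it was 799 of 6167 without cyc8 replicate 3 and 1420 of 6160 without wt replicate 3. The cause of these changes was not tested.

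Replicate numbers gave no visible pairing of libraries: of 15 same-number pairs 1 correlated above 0.1 (r from -0.135 to 0.21), as did 9 of 38 other pairs. These values were centred within small groups, which ties their correlations together, so they cannot settle whether libraries were paired by replicate number. With the number as a replicate block, members called were 6 in cyc8 against wt, 5 in cyc8 snf2 against snf2, 2 in snf2 against wt, 0 in cyc8 snf2 against cyc8, 5 in cyc8 snf2 against wt and 1 in the interaction, and 0 calls of single members changed. In the same order, that fit called 2769, 2705, 2044, 841, 2856 and 1435 of all 6171 genes.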
